A study of Mus musculus with 6 samples.

Results

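Interleukin-10 and the genes that control or receive it are described here in mouse helper T cells with and without the miR-17-92 microRNA cluster. The members are 4 named genes, Il10, Maf, Prdm1 and Il10ra, out of 12393 genes with a probe set of their own on the array. A probe set counted as a gene's own where the platform annotation gave it a single symbol. Il10, Maf and Prdm1 had 1 such set each and Il10ra had 3, of which the set chosen by the highest mean over the 6 arrays stood for the gene. That mean was the only measured value in the choice of probe sets. The genes themselves had been picked with earlier results of these arrays known, among them the large difference of Il10 without the cluster. The levels of Il10 are therefore given as a description, with SE and interval but with no p and no call. The p-values and calls of Maf, Prdm1 and Il10ra do not account for this choice of genes.

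Interleukin-10 is a secreted cytokine with which T cells and other leukocytes restrain inflammation. It binds a receptor whose ligand-binding chain is encoded by Il10ra and whose shared chain is encoded by Il10rb, and it signals through the kinases JAK1 and TYK2 to the transcription factor STAT3. In T cells the gene is switched on by several factors, among them c-Maf, the product of Maf, and Blimp-1, the product of Prdm1.

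The cells were CD4+CD25- T cells isolated by sorting, stimulated through CD3 and CD28 with antibodies, infected with a retrovirus and harvested 5 days later. WT-mock cells came from wild-type B6 mice and carried the empty vector. KO-mock and KO-miR-17 cells both came from miR-17-92f/f CD4-cre+ B6 mice, in which Cre driven by CD4 regulatory sequences removes the floxed cluster in T cells. The KO-mock cells carried the empty vector and the KO-miR-17 cells a vector overexpressing miR-17. Each group had 2 arrays, labelled as biological replicates. The sources used here do not say whether cells of several mice were pooled. In such bulk samples, fewer cells of a type and less RNA per cell cannot be told apart.

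MicroRNAs of the cluster are shown because the KO-miR-17 vector returned miR-17. Of 11 mature forms in the RefSeq table, both arms of miR-17 are given, and of each other microRNA the arm usually loaded. Their seeds, bases 2 to 8, which pair with target mRNAs, are in capitals. They lie within 1 kb on the plus strand of chromosome 14 in GRCm38.p6, from chr14:115043684-115043706 for miR-17-5p to chr14:115044476-115044496 for miR-92a-3p.
mmu-miR-17-5p: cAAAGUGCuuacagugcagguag
mmu-miR-17-3p: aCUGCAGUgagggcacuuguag
mmu-miR-20a-5p: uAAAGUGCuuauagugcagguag
mmu-miR-18a-5p: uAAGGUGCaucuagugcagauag
mmu-miR-19a-3p: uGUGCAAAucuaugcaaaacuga
mmu-miR-19b-3p: uGUGCAAAuccaugcaaaacuga
mmu-miR-92a-3p: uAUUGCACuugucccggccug
Within the cluster the seed of miR-17-5p is also that of miR-20a-5p and not that of miR-17-3p, and miR-19a-3p and miR-19b-3p share another. Outside the cluster miR-20b-5p, miR-93-5p, miR-106a-5p, miR-106b-5p and miR-6383, on chromosomes X and 5, carry the seed of miR-17-5p too. The labels do not say which arm of miR-17 the vector gave, and microRNA levels were not analysed here.

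Values are log2 intensities of probe sets, computed by the authors with RMA, and a difference is given in log2 units ± SE of a limma fit with n = 2 arrays per group. A gene was called at a Benjamini-Hochberg adjusted p under 0.05 over all 12393 genes. The lower quartile of an array was 3.99 to 4.17, and readings below that range can be set by background. With 2 arrays against 2 an exact permutation test cannot go below p = 0.333, so calls rest on limma, which borrows the spread of other genes. Nothing beyond the word biological says that replicates came from separate mice or cultures, and the p-values measure the spread between these arrays. In KO-mock against WT-mock 6.54% of genes were called, 3.74% as higher and 2.79% as lower. In KO-miR-17 against WT-mock 6.8% were called, 4.03% as higher and 2.77% as lower. In KO-miR-17 against KO-mock limma called 0 genes (0%). There 487 of the 12393 genes had an unadjusted p under 0.05, fewer than that threshold would pass on average if no gene differed. Unadjusted p-values from this comparison are given below as descriptions only. Any pair of these comparisons shares the arrays of 1 group, so they are not independent. The gene lists below were chosen with earlier results of these data known. Their counts beside the shares over all genes are therefore descriptions, since the choice itself can raise them. Some genes stand in several lists, so the counts of different lists are not separate results.

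Il10 was bright in WT-mock cells and dim in both deficient groups. Its probe set read 8.32 and 8.01 on the WT-mock arrays, 3.69 and 3.47 on the KO-mock arrays and 3.78 and 3.45 on the KO-miR-17 arrays. Both WT-mock arrays stood far above the others, and the 4 deficient arrays lay below the lower quartile of every array. The difference between KO-mock and WT-mock was -4.59 ± 0.18, a 24.1-fold difference in brightness, and that between KO-miR-17 and WT-mock was -4.55 ± 0.18. Both are differences of readings and not ratios of transcripts, since the deficient cells' readings may be background. Leaving out an array of the first pair of groups gave -4.74 to -4.44. With miR-17 returned the reading differed from KO-mock by 0.04 ± 0.18, with a 95% interval of -0.38 to 0.46, and the arrays of these groups overlapped. Readings this dim can compress a change, so the interval bounds the reading and not the transcript.

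**Figure D1:**
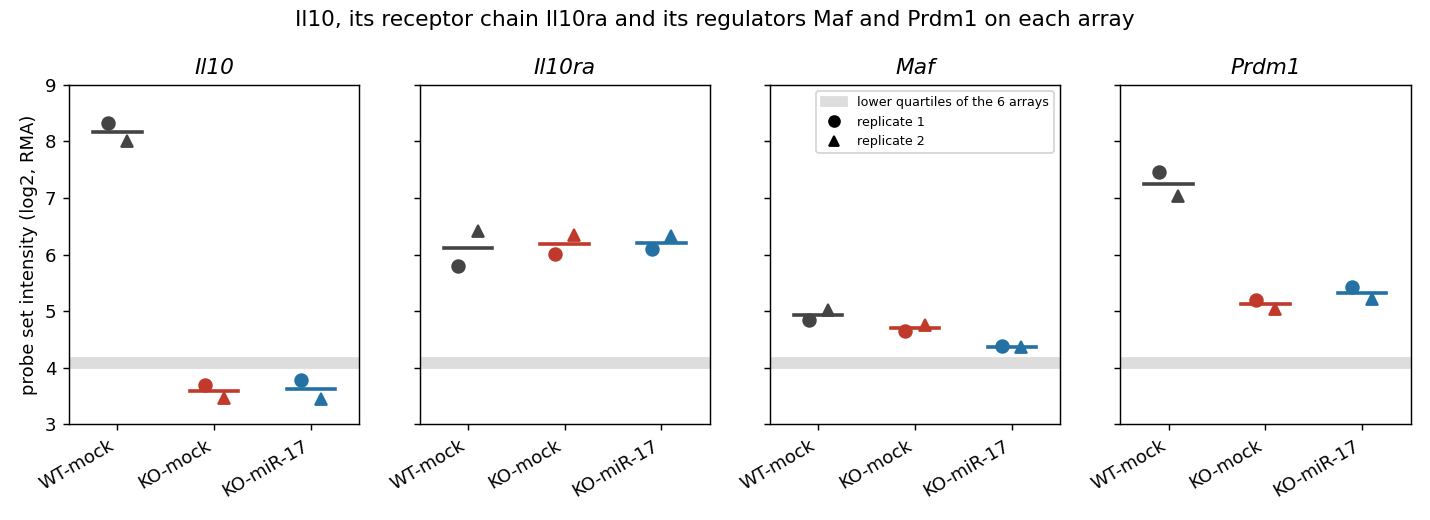
Log2 probe set intensity of Il10, Il10ra, Maf and Prdm1 on each of the 6 arrays (circles replicate 1, triangles replicate 2), with bars at the group means and a grey band over the arrays' lower quartiles. The mean of Il10 is 8.17 in WT-mock, 3.58 in KO-mock and 3.62 in KO-miR-17 cells, the latter groups below the band, that of Prdm1 is 7.25, 5.12 and 5.33, Maf lies between 4.36 and 5.02 just above the band, and the groups of Il10ra overlap.

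The receptor chain that binds interleukin-10 did not pass in any comparison. Il10ra read 5.80 and 6.42 on the WT-mock arrays, 6.01 and 6.35 on the KO-mock arrays and 6.09 and 6.32 on the KO-miR-17 arrays. The WT-mock arrays enclosed the other 4 readings, and replicate 2 was the brighter array in each group. The difference between KO-mock and WT-mock was 0.07 ± 0.23 (limma adjusted p = 0.898), with a 95% interval of -0.45 to 0.60. That between KO-miR-17 and KO-mock was 0.02 ± 0.23 (limma adjusted p = 0.9995, interval -0.50 to 0.55), and that between KO-miR-17 and WT-mock 0.10 ± 0.23 (limma adjusted p = 0.843, interval -0.43 to 0.62). The sign of these small differences changed with the array left out. The dimmer Il10ra sets differed by -0.02 and -0.04 between KO-mock and WT-mock, and the dimmest lay between 3.23 and 3.57 on all arrays. The shared chain gene Il10rb read 8.11 and 8.35 in WT-mock, 8.40 and 8.69 in KO-mock and 7.90 and 8.35 in KO-miR-17 cells. It differed by 0.31 ± 0.18 without the cluster (limma adjusted p = 0.379) and by -0.42 ± 0.18 with miR-17 returned (unadjusted p = 0.0460, limma adjusted p = 0.9995).

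Downstream of the receptor, 5 of 14 measured genes of a list of interleukin-10 receptor chains, kinases, signal transducers and feedback inhibitors were lower in KO-mock than in WT-mock cells, 0 were higher and 9 missed the threshold. The shares over all genes were 2.79% lower and 3.74% higher. The median difference was -0.21, beside -0.03 over all genes. The 5 were Stat3, the main transducer of the signal, Stat5a and Stat5b, which carry signals of interleukin-2 and its relatives, Bcl3, an atypical member of the inhibitors of NF-kappaB, and Nfil3, a leucine zipper factor. Stat5a read 8.82 and 8.67 in WT-mock, 8.12 and 8.17 in KO-mock and 8.36 and 8.29 in KO-miR-17 cells. Its 3 groups did not overlap, and it fell by 0.60 ± 0.10 without the cluster (limma adjusted p = 0.0209), a call kept only when WT-mock replicate 2 was left out. Arrays of the groups compared also failed to overlap in 49.9% of all genes for KO-mock against WT-mock. The shares were 28.9% for KO-miR-17 against KO-mock and 50.4% for KO-miR-17 against WT-mock. Stat5b fell by 0.53 ± 0.09 (limma adjusted p = 0.0194), while a dimmer Stat5b set read -0.06. Stat3 read 9.55 and 9.38 in WT-mock, 8.85 and 8.68 in KO-mock and 8.76 and 8.48 in KO-miR-17 cells (-0.70 ± 0.13, limma adjusted p = 0.0250), and its dimmer sets differed by -0.66 and -0.15. The feedback inhibitor gene Socs3 was not called, with WT-mock readings of 10.05 and 9.13 that lay far apart (-0.79 ± 0.29, limma adjusted p = 0.156). The list's count was 1 without WT-mock replicate 1, KO-mock replicate 1 or KO-mock replicate 2, 3 without WT-mock replicate 2, and 3 where a gene's sets were averaged. Nfil3 alone of the 5 was called in all 4 fits that left out an array of these groups.

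Jak1, which encodes the kinase bound to the ligand-binding chain, was singled out after its values were seen. It read 9.89 and 9.71 in WT-mock, 9.60 and 9.41 in KO-mock and 9.08 and 8.86 in KO-miR-17 cells, so that no group overlapped another. It missed the threshold in KO-mock against WT-mock (-0.30 ± 0.12, limma adjusted p = 0.199) and in KO-miR-17 against KO-mock (-0.53 ± 0.12, unadjusted p = 0.00235, limma adjusted p = 0.787), and was lower in KO-miR-17 than in WT-mock cells (-0.83 ± 0.12, limma adjusted p = 0.0145). That last call was lost without WT-mock replicate 1 or KO-miR-17 replicate 2, and the difference ran from -0.94 to -0.72 over the 4 fits that each lacked an array of those groups. The other Jak1 sets differed by -0.79 and -0.44 in the same comparison. Over all genes, groups did not overlap in 49.9% for KO-mock against WT-mock. That share was 28.9% for KO-miR-17 against KO-mock and 50.4% for KO-miR-17 against WT-mock.

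Of the regulators, Prdm1 fell without the cluster and Maf did not pass. Prdm1 encodes Blimp-1, a zinc finger repressor of effector and regulatory T cells that is needed for interleukin-10 in several of them. Its set read 7.45 and 7.04 on the WT-mock arrays, 5.20 and 5.04 on the KO-mock arrays and 5.43 and 5.22 on the KO-miR-17 arrays. Both WT-mock arrays stood above the 4 deficient ones, which lay above the lower quartiles. Prdm1 fell by 2.13 ± 0.18 in KO-mock against WT-mock cells, which is 4.37-fold (limma adjusted p = 0.00251), and in KO-miR-17 against WT-mock cells the difference was -1.92 ± 0.18 (limma adjusted p = 0.00542). Both calls held in the 4 fits that each lacked an array of the groups compared, with limma adjusted p of 0.00679 to 0.0210 in the first. The KO-miR-17 arrays lay just above the KO-mock arrays, but the difference of 0.21 ± 0.18 missed the threshold (limma adjusted p = 0.9995, 95% interval -0.21 to 0.62).

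Maf encodes c-Maf, a leucine zipper factor that binds the Il10 promoter in several helper T cell lineages. Its only set, which the annotation pairs with the gene but with no accession, read 4.85 and 5.02 in WT-mock, 4.64 and 4.76 in KO-mock and 4.38 and 4.36 in KO-miR-17 cells. The groups stood in that order without overlap, just above the lower quartiles. Arrays also failed to overlap in 49.9% of all genes in the first comparison, 28.9% in the second and 50.4% in the third. Maf differed by -0.23 ± 0.13 without the cluster (limma adjusted p = 0.383, 95% interval -0.54 to 0.08) and by -0.33 ± 0.13 with miR-17 returned (unadjusted p = 0.0390, limma adjusted p = 0.9995, interval -0.64 to -0.02). It was lower in KO-miR-17 than in WT-mock cells (-0.57 ± 0.13, limma adjusted p = 0.0483), and this call was lost whichever array was left out, with differences of -0.65 to -0.48. Of the 3 members other than Il10, 1 passed the test in the first comparison, 0 in the second and 2 in the third. Of all genes, 6.54%, 0% and 6.8% passed in these comparisons. The members were picked with earlier results of these arrays known, so their counts beside these shares are a description.

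**Figure D2:**
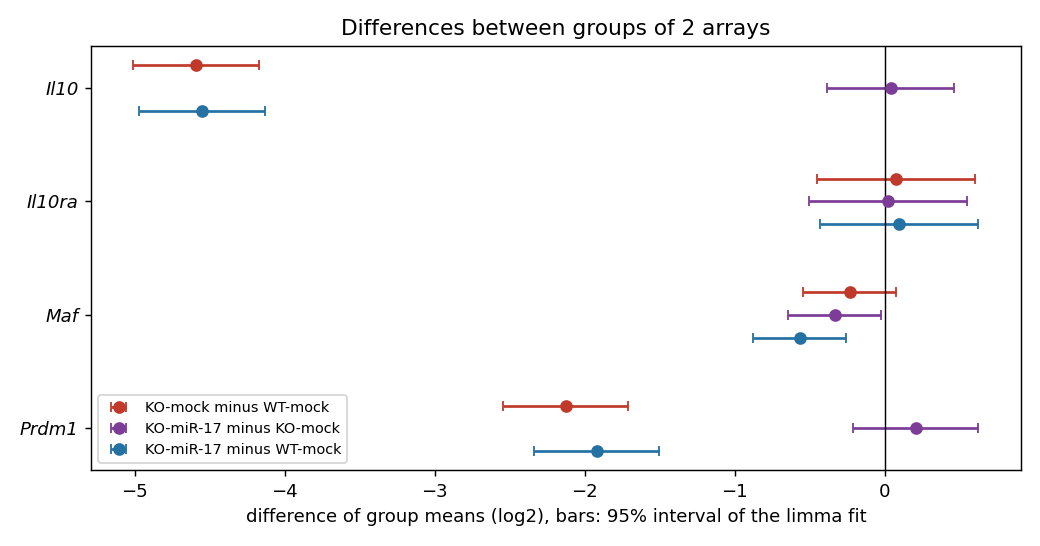
Differences between group means in log2 units for Il10, Il10ra, Maf and Prdm1 in the 3 comparisons, as points with the 95% interval of the limma fit (2 arrays per group). Il10 and Prdm1 lie far below 0 in both comparisons with WT-mock cells (-4.59 and -4.55, -2.13 and -1.92), their intervals for KO-miR-17 minus KO-mock include 0, and all 3 intervals of Il10ra include 0.

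The promoter of Prdm1 is shown because Prdm1 was the member that passed the test in both comparisons with WT-mock cells and was matched in the RefSeq promoter table. The window runs from 250 bases before to 50 after the start, at chr10:44458699-44458998 on the minus strand of GRCm38.p6. Capitals mark the match to TGANTCA, a loose form of the site of AP-1 and of BATF with JUN proteins. The pattern leaves the middle base open. The usual site has C or G there, and this match, TGAATCA, has A.
Prdm1 promoter: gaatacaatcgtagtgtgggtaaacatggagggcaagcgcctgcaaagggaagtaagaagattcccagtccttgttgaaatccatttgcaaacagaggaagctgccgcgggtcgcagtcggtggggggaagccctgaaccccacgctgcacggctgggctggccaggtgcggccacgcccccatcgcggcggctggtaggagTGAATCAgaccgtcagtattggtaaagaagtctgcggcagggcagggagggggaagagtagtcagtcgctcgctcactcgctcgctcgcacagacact
The match begins at position -48 from the start. Both strands were searched, and 7.81% of the 32851 promoters in the table hold such a match. The window held no match to TTCNNNGAA, the STAT site (8.3% of promoters), to GAAA, any 2 bases and GAAA, an IRF site that the Blimp-1 site overlaps (3.44%), or to TGCTGA, a core MAF site (19.5%). A match is a description of letters and not of binding.

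Other factors that act on Il10 or on its regulators were lower in part. This list too was chosen with earlier results known, so its counts are a description. Of 33 measured genes of that list, Prdm1 and Maf included, 11 were lower in KO-mock than in WT-mock cells, 0 were higher and 22 missed the threshold, with a median of -0.33 beside -0.03 over all genes. Called over all genes were 2.79% as lower and 3.74% as higher here, and 2.77% and 4.03% in KO-miR-17 against WT-mock cells. The 11 were Prdm1, Nfil3, Batf, Bcl6, Id2, Stat4, Rbpj, Bcl3, Junb, Gata3 and Stat3. Nfil3, Bcl3 and Stat3 were also counted in the receptor and signalling list above. Prdm1, Nfil3, Batf and Stat4 kept the call in all 4 fits that each lacked an array of these groups, whereas Stat3, Gata3 and Bcl3 lost it in all 4. The count was 4 without WT-mock replicate 1, 8 without WT-mock replicate 2, 7 without KO-mock replicate 1 and 6 without KO-mock replicate 2. In KO-miR-17 against WT-mock cells 11 of the 33 were lower and 0 higher, a count of 4 without WT-mock replicate 1 or KO-miR-17 replicate 2 and 7 without WT-mock replicate 2.

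Nfil3, which promotes interleukin-10 in Th2 cells, read 10.19 and 10.22 in WT-mock, 8.44 and 8.79 in KO-mock and 8.99 and 8.88 in KO-miR-17 cells. It fell by 1.59 ± 0.13 without the cluster (limma adjusted p = 0.00180), and the KO-miR-17 arrays lay above the KO-mock arrays by 0.32 ± 0.13 (unadjusted p = 0.0347, limma adjusted p = 0.9995). Batf, an AP-1 family factor of effector differentiation, read 10.26 and 9.84 in WT-mock, 8.52 and 8.57 in KO-mock and 8.77 and 8.67 in KO-miR-17 cells (-1.50 ± 0.14, limma adjusted p = 0.00344). All 4 deficient arrays of both genes lay more than 1 log2 unit below the dimmest WT-mock array. Stat4, which carries signals of interleukin-12, had means of 9.03 in WT-mock, 8.13 in KO-mock and 7.98 in KO-miR-17 cells (-0.89 ± 0.10, limma adjusted p = 0.00578). Rbpj, the DNA-binding partner of Notch, read 9.61 on both arrays in WT-mock, 8.58 and 8.88 in KO-mock and 8.96 and 8.85 in KO-miR-17 cells, and fell by 0.88 ± 0.12 (limma adjusted p = 0.0124). Junb, which pairs with BATF, read 9.99 and 9.88 in WT-mock, 8.99 and 9.18 in KO-mock and 9.41 and 9.43 in KO-miR-17 cells. Its KO-miR-17 arrays stood between those of the other groups, 0.34 ± 0.10 above KO-mock (unadjusted p = 0.00973, limma adjusted p = 0.9995). Rbpj and Junb each lost the call of the first comparison without WT-mock replicate 1.

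Gata3, the lineage factor of Th2 cells, read 9.94 and 10.29 in WT-mock, 9.20 and 9.56 in KO-mock and 9.56 and 9.49 in KO-miR-17 cells (-0.74 ± 0.15, limma adjusted p = 0.0330). Id2, whose product blocks E proteins from binding DNA, fell by 1.08 ± 0.20 (limma adjusted p = 0.0262), and its dimmer sets differed by -1.12 and -1.22. It kept the call only where KO-mock replicate 1 was left out. Other known activators and repressors of Il10 in the list missed the threshold in the first comparison. Irf4, a partner of BATF, read between 10.42 and 10.70 on the 6 arrays (0.18 ± 0.09, limma adjusted p = 0.300). Ahr, a ligand-activated partner of c-Maf, read 5.59 and 4.85 in WT-mock cells and 4.70 to 5.05 on the deficient arrays (-0.35 ± 0.24, limma adjusted p = 0.481). Bhlhe40, a repressor of Il10, overlapped between WT-mock and KO-mock arrays (-0.42 ± 0.27, limma adjusted p = 0.436). Bach2, which restrains Prdm1, differed by -0.43 ± 0.20 (limma adjusted p = 0.268). Egr2 had the highest difference of the 33, 0.29 ± 0.12 (limma adjusted p = 0.228).

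**Figure D3:**
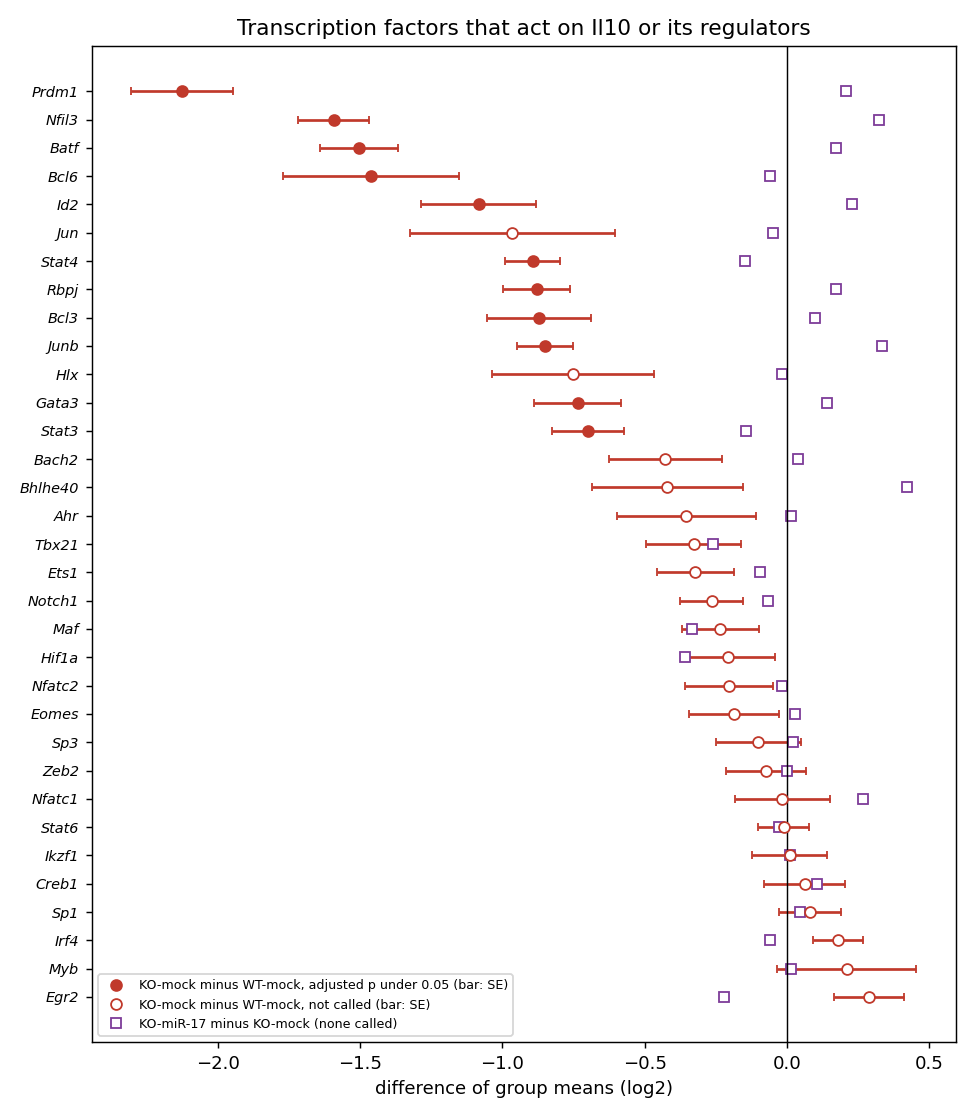
Differences in log2 units for the 33 measured genes of the list of factors that act on Il10 or its regulators, most of them transcription factors. Circles show KO-mock minus WT-mock, with the SE of the limma fit as bar, and are filled at a limma adjusted p under 0.05. Open squares show KO-miR-17 minus KO-mock (none called). The 11 filled circles lie between -2.13 for Prdm1 and -0.70 for Stat3, and the squares between -0.36 and 0.42.

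Receptors and ligands whose signals raise Il10 or Maf were also lower in part. Of 17 measured genes of that list, 5 were lower without the cluster, 1 was higher and 11 missed the threshold, with a median of -0.27. All genes together had 2.79% lower, 3.74% higher and a median of -0.03. The lower genes were Il27ra, Il21r, Il4ra, Il12rb2 and Tgfbr2. Il27ra, the receptor chain for interleukin-27, a strong inducer of interleukin-10 in T cells, read 8.92 and 8.66 in WT-mock, 8.23 and 7.97 in KO-mock and 8.19 and 7.95 in KO-miR-17 cells (-0.69 ± 0.15, limma adjusted p = 0.0365). Il21r, the interleukin-21 receptor gene, read 8.45 and 8.25 in WT-mock, 7.75 and 7.79 in KO-mock and 7.81 and 7.64 in KO-miR-17 cells (-0.58 ± 0.12, limma adjusted p = 0.0329). In both genes the deficient groups overlapped each other and not the WT-mock arrays. Tgfbr2, a receptor gene for TGF-beta, read 9.43 and 9.54 in WT-mock, 9.09 and 8.79 in KO-mock and 8.42 and 8.21 in KO-miR-17 cells. Its 3 groups did not overlap, with a difference of -0.55 ± 0.13 in the first comparison (limma adjusted p = 0.0491), -0.62 ± 0.13 in the second (unadjusted p = 0.00155, limma adjusted p = 0.674) and -1.17 ± 0.13 in the third (limma adjusted p = 0.00741). Dimmer Tgfbr2 sets differed by -0.25 and -0.03 in the first comparison. Il27ra, Il21r and Tgfbr2 lost the first call whichever WT-mock or KO-mock array was left out, and Tgfbr2 kept the third in all 4 such fits.

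The higher gene, Notch2, a receptor that acts through the product of Rbpj, read 7.28 and 7.65 in WT-mock, 8.56 and 9.10 in KO-mock and 8.49 and 8.99 in KO-miR-17 cells (1.36 ± 0.23, limma adjusted p = 0.0205). A dimmer Notch2 set, with a mean of 4.36, differed by -0.02. Notch2 lost its call without WT-mock replicate 1 and without KO-mock replicate 2. The list's count of lower genes was 0 without WT-mock replicate 1 or KO-mock replicate 1, 1 without WT-mock replicate 2 or KO-mock replicate 2, and 3 without a variance trend. The ligand gene Il21 read 8.97 and 7.05 in WT-mock, 7.00 and 5.33 in KO-mock and 7.00 and 4.78 in KO-miR-17 cells, with replicate 1 the brighter array in each group, and was not called (-1.85 ± 0.87, limma adjusted p = 0.275).

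Beside Il10 on chromosome 1 lie the genes of its relatives Il19, Il20 and Il24. Il24, which encodes a cytokine of the interleukin-10 family made by Th2 cells among others, read 7.93 and 8.63 in WT-mock, 5.86 and 6.47 in KO-mock and 5.95 and 5.15 in KO-miR-17 cells. Both WT-mock arrays stood above all deficient ones, which lay above the lower quartiles. It fell by 2.11 ± 0.33 without the cluster (limma adjusted p = 0.0189), and the difference between KO-miR-17 and WT-mock cells was -2.73 ± 0.33 (limma adjusted p = 0.00965). The first call was lost without WT-mock replicate 2 and without KO-mock replicate 1, with differences of -2.46 to -1.76 as arrays were left out, and the second was kept in all 4 such fits. Il20, which lies between Il24 and Il10, read 4.64 to 5.20 on the 6 arrays and missed the threshold (-0.19 ± 0.22, limma adjusted p = 0.690). Il19 was not analysed here.

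On the other side of Il10 the nearest genes missed the threshold. Mapkapk2, a stress kinase gene next to Il10, read 8.04 to 8.37 on all arrays (-0.18 ± 0.11, limma adjusted p = 0.448). Dyrk3, the second gene, differed by 0.22 ± 0.19 (limma adjusted p = 0.598) and Eif2d, the third, by 0.41 ± 0.13 (limma adjusted p = 0.126). Further along, Rassf5 (-0.47 ± 0.11, limma adjusted p = 0.0462) and Ikbke (-0.68 ± 0.16, limma adjusted p = 0.0480) were lower, calls that were lost whichever WT-mock or KO-mock array was left out. Of 10 other measured protein-coding genes up to the 6th place on either side of Il10, 3 were thus called lower and 0 higher. Over all genes these shares were 2.79% and 3.74%.

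**Figure D4:**
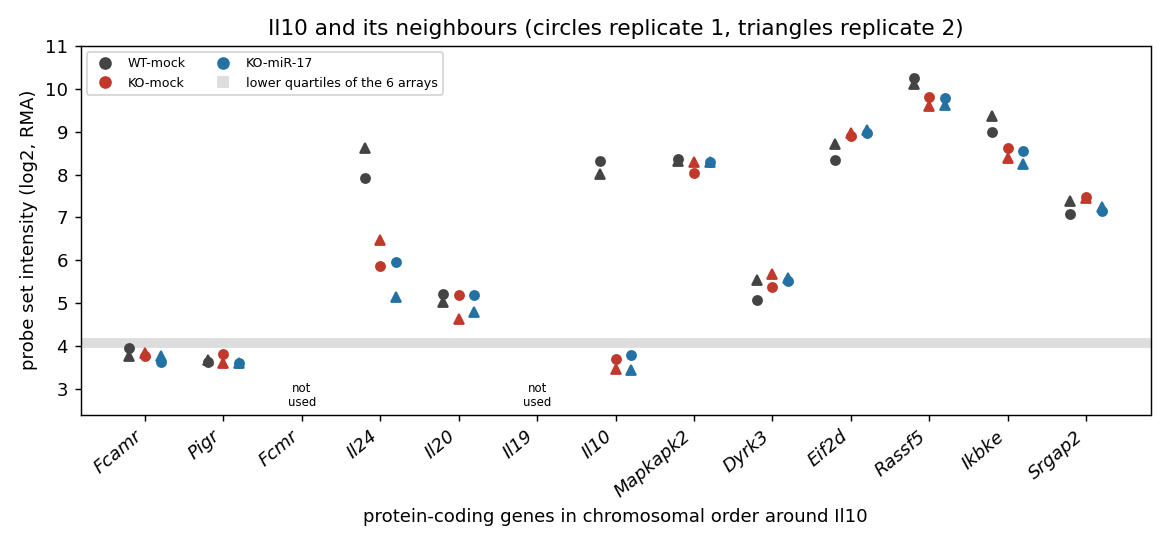
Log2 probe set intensity on each array for Il10 and the protein-coding genes up to the 6th place on either side, in the chromosomal order of the RefSeq table, with the range of the arrays' lower quartiles in grey. WT-mock readings of Il10 and Il24 stand far above those of both deficient groups. Those of Mapkapk2, Rassf5, Ikbke and Eif2d also do not overlap the deficient readings, by smaller margins, and those of Il20, between Il24 and Il10, do. Arrays failed to overlap in 49.9% of all genes for KO-mock and 50.4% for KO-miR-17 against WT-mock.

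Among relatives of interleukin-10 and of its receptor chains, Il10 left out, 9 genes were measured. Their median difference without the cluster was -0.17, beside -0.03 over all genes. Of the 9, 1 was lower, Il24, 0 were higher and 8 missed the threshold, beside 2.79% lower and 3.74% higher over all genes. Without KO-mock replicate 1 the count was 0. The interferon-gamma receptor genes of this family, Ifngr1 (-1.12 ± 0.27, limma adjusted p = 0.0509) and Ifngr2 (-0.79 ± 0.22, limma adjusted p = 0.0777), were not called. The interferon-alpha receptor genes were Ifnar1 (-0.17 ± 0.13, limma adjusted p = 0.558) and Ifnar2 (0.08 ± 0.14, limma adjusted p = 0.807), both not called.

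Of 9 measured genes other than Il10 that c-Maf induces in T cells, 2 were lower, 0 were higher and 7 missed the threshold, with a median of -0.39. Beside this, all genes had 2.79% lower, 3.74% higher and a median of -0.03. The lower genes were the Th2 cytokine gene Il4 and Ctla4, a receptor that limits T cell activation. Il4 read 9.93 and 10.23 in WT-mock, 7.71 and 8.87 in KO-mock and 8.11 and 8.62 in KO-miR-17 cells (-1.79 ± 0.34, limma adjusted p = 0.0271), a call lost when either WT-mock array was left out. Ctla4 read 10.51 on both arrays in WT-mock, 9.27 and 9.26 in KO-mock and 9.43 and 9.38 in KO-miR-17 cells (-1.25 ± 0.08, limma adjusted p = 0.000677), and kept its call in all 4 fits that each lacked a WT-mock or KO-mock array. The count was 1 without either WT-mock array and 3 without either KO-miR-17 array. Lag3, an inhibitory receptor found on interleukin-10 producers, read 9.45 and 9.12 in WT-mock, 8.49 and 7.86 in KO-mock and 8.52 and 7.81 in KO-miR-17 cells, and was not called (-1.12 ± 0.27, limma adjusted p = 0.0538).

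Genes that Blimp-1 represses were called in both directions. Of 15 measured, 2 were higher, 2 were lower and 11 missed the threshold, with a median of -0.11. The values over all genes were 3.74% higher, 2.79% lower and a median of -0.03. The higher genes were Il2, the T cell growth factor, and Myc, a driver of growth. Il2 read 5.02 and 5.39 in WT-mock, 7.34 and 8.34 in KO-mock and 7.01 and 8.78 in KO-miR-17 cells (2.63 ± 0.54, limma adjusted p = 0.0317), a call lost whichever of the first 4 arrays was left out. Myc read 8.41 and 8.86 in WT-mock, 9.52 and 9.98 in KO-mock and 9.54 and 9.91 in KO-miR-17 cells (1.12 ± 0.21, limma adjusted p = 0.0257). The lower genes were Bcl6, a repressor that opposes Blimp-1, and Il7r, a receptor gene of naive and memory cells. Bcl6 was also counted among the lower factors that act on Il10. A second Bcl6 set was nearly as bright as the one used (means of 4.88 and 4.94 over all arrays) and differed by only -0.41. Bcl6 read 6.43 and 5.45 in WT-mock, 4.73 and 4.22 in KO-mock and 4.40 and 4.43 in KO-miR-17 cells (-1.46 ± 0.31, limma adjusted p = 0.0347), a call kept only where WT-mock replicate 2 was left out. Il7r read 10.94 and 10.74 in WT-mock, 9.49 and 9.47 in KO-mock and 9.51 and 9.46 in KO-miR-17 cells (-1.36 ± 0.09, limma adjusted p = 0.000915), and was called in all 4 such fits. The count of higher genes was 0 without WT-mock replicate 1 or KO-mock replicate 2 and 1 without WT-mock replicate 2 or KO-mock replicate 1. That of lower genes was 1 without WT-mock replicate 1 or either KO-mock array.

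Of 12 measured genes of type 1 regulatory T cells, a helper subset that makes interleukin-10, and of the inhibitory receptors found with it, 4 were lower, 0 were higher and 8 missed the threshold, with a median of -0.20. All genes had 2.79% lower and 3.74% higher, with a median of -0.03. The 4 were Ctla4, Entpd1, an enzyme that degrades extracellular ATP, Havcr2, the gene of TIM-3, and the protease gene Gzmb. Ctla4 was also counted among the genes that c-Maf induces. Entpd1 read 6.58 and 7.48 in WT-mock, 5.53 and 5.63 in KO-mock and 5.42 and 5.45 in KO-miR-17 cells (-1.45 ± 0.26, limma adjusted p = 0.0247), and a dimmer set differed by -1.32. Havcr2 read 4.16 and 4.38 in WT-mock, 3.65 and 3.59 in KO-mock and 3.50 and 3.44 in KO-miR-17 cells, so that its deficient readings lay below the lower quartiles. Gzmb read 12.11 and 11.51 in WT-mock, 10.72 and 10.04 in KO-mock and 10.67 and 9.76 in KO-miR-17 cells (-1.43 ± 0.33, limma adjusted p = 0.0477). The count was 2 without either WT-mock array and 1 without either KO-mock array. Pdcd1, the gene of PD-1, read 6.69 and 6.77 in WT-mock, 6.91 and 6.81 in KO-mock and 7.19 and 7.20 in KO-miR-17 cells and was not called in any comparison.

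Profiles over the 6 arrays, each centred on its own mean, were compared by their root mean square distance in log2 units. The nearest genes share a member's pattern because they were chosen by this distance. The genes nearest to Il10 were Ctla2b (0.46), Serpinf1 (0.70) and Gem (0.83), all brighter in WT-mock than in both deficient groups. Nearest to Prdm1 were Adamtsl4 (0.18), Padi2 (0.19) and Sema4f (0.21). Padi2 read 7.96 and 7.69 in WT-mock, 5.93 and 5.88 in KO-mock and 6.20 and 5.51 in KO-miR-17 cells. Nearest to Maf were Tjp3 (0.038), Adipor1 (0.047) and Syap1 (0.057), each lowest in KO-miR-17 cells. Nearest to Il10ra were Rad50 (0.041), Ly96 (0.055) and Septin8 (0.060), which like Il10ra were brighter on replicate 2 of each group.

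The labelled cell type was checked against its markers. The 9 measured CD4 T cell genes, Cd4 and Cd3e among them, had means of 10.65 to 10.67 on the WT-mock, 10.39 to 10.49 on the KO-mock and 10.32 to 10.40 on the KO-miR-17 arrays. Their median difference between KO-mock and WT-mock was -0.20, beside -0.03 over all genes, and 1 of the 9 was called, beside 6.54% of all genes. Thy1, a surface marker of T cells, read 11.33 and 11.24 in WT-mock, 10.44 and 10.67 in KO-mock and 10.38 and 10.54 in KO-miR-17 cells and fell by 0.73 ± 0.10 (limma adjusted p = 0.0137), a call lost without WT-mock replicate 1. Markers of other cells that can make interleukin-10 were mostly dim. The log2 of the summed readings of 8 macrophage and monocyte genes was 7.24 to 7.30, 7.10 to 7.12 and 7.04 to 7.15 in the 3 groups, with Cd14, Lyz2, Fcgr1, Itgam and Cd163 below the lower quartiles in all of them. That of 7 B cell genes was 9.87 to 9.91, 9.07 to 9.20 and 9.11 to 9.15, with Blnk and Pax5 below the quartiles, and Ighm fell by 1.02 ± 0.10 without the cluster (limma adjusted p = 0.00509). Ighm, the gene of the IgM heavy chain and the brightest of these, has 11 sets. The second brightest differed by -1.04, the third by -0.20 and the rest by -0.28 to 0.23, and the call was lost where a gene's sets were averaged. The part of B cells in the Il10 reading was not tested. The 4 dendritic cell genes averaged 3.94 to 4.19, the 3 NK cell genes 3.67 to 4.08 and the 3 CD8 T cell genes 4.95 to 5.16 over all arrays. The 6 genes of regulatory T cells, which the sort on CD25 depletes, averaged 6.92 on both WT-mock arrays. Their averages were 7.07 to 7.30 on the KO-mock and 7.09 to 7.37 on the KO-miR-17 arrays. Foxp3 and Ikzf2 lay below the quartiles in every group. Tnfrsf18 read 11.24 to 11.87, Il2ra 9.76 to 10.37 and Ikzf4 7.20 to 7.92 over all arrays. Of the 6, Nrp1 rose (1.10 ± 0.20, limma adjusted p = 0.0247) and 5 missed the threshold. The Nrp1 call was lost whichever WT-mock or KO-mock array was left out, with differences of 1.01 to 1.19, and its dimmer sets differed by 0.94 and 1.17. The poly-A controls spiked into the RNA were lower in 24 of 24 probe sets on the KO-mock than on the WT-mock arrays, by a mean difference of -0.57, and in 24 of 24 on the KO-miR-17 arrays, by -0.54. The hybridization controls were lower in 18 of 18 sets, by -0.17 in KO-mock against WT-mock, -0.12 in KO-miR-17 against KO-mock and -0.29 in KO-miR-17 against WT-mock. Some genes called lower in KO-mock against WT-mock differed by about as much as the poly-A controls, among them Stat5b (-0.53), Tgfbr2 (-0.55), Il21r (-0.58) and Stat5a (-0.60). In KO-miR-17 against WT-mock, Maf (-0.57) differed by about as much as the poly-A controls did there (-0.54). The part of what shifted either kind of control in the lower readings of these genes, of Il10, Prdm1 and Il24 or of any other gene was not tested.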

How the data were processed

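The authors deposited log2 probe set intensities from RMA, as the submitters' processing notes name it without a version. RMA removes background, gives the probes of all arrays the same distribution of intensities and combines the probes of a set. The quartiles of the resulting set values still differed between arrays. The log base was taken from that convention and the values' range. Of 22690 probe sets, 20380 had a single symbol; the brightest over all arrays stood for each of 12393 genes. One limma 3.58.1 fit in R 4.3.3 held all 6 arrays (lmFit, contrasts.fit, eBayes with trend; 3 residual and 4.69 prior degrees of freedom), with Benjamini-Hochberg adjustment over all genes and calls at 0.05. The fit was tested on simulated data. Members, lists and the rule for named genes were chosen with earlier results of these data known. The rule took the 4 members, called members of each list, neighbours and relatives of Il10 and the 3 genes nearest to each member by profile. Genes named though not called are examples picked on their values. Lists were described by counts and medians, without a set test. Alternatives were leaving out each array, a term for replicate number, and other probe set rules, scalings and variance settings. The number of arrays limits the precision. Figures were drawn with matplotlib 3.10.9.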

Additional observations from a re-analysis of the deposited data

How the results depend on the processing

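Prdm1 kept direction and side of the threshold, and Il10 its direction, in both comparisons with WT-mock cells under all 15 alternatives. The call of Maf in KO-miR-17 minus WT-mock was lost without each array (-0.65 to -0.48), with all probe sets tested (-0.57, limma adjusted p = 0.0539), with quantile normalization again (-0.46) and with only the 2 groups compared (-0.57, limma adjusted p = 0.0786). Signs turned only where nothing was called: without an array, Il10ra ranged from -0.24 to 0.38 in KO-mock minus WT-mock, from -0.14 to 0.19 in KO-miR-17 minus KO-mock and from -0.21 to 0.41 in KO-miR-17 minus WT-mock, and Il10 from -0.13 to 0.20 in KO-miR-17 minus KO-mock. Il10ra in KO-miR-17 minus KO-mock was also -0.0098 with quantile normalization again and -0.009 with array medians subtracted. Counts of called genes moved far more: 810 in KO-mock minus WT-mock became 101 without WT-mock replicate 1, 365 without WT-mock replicate 2, 277 without KO-mock replicate 1 and 95 without KO-mock replicate 2. The 843 in KO-miR-17 minus WT-mock became 105 and 448 without WT-mock replicates 1 and 2, 473 and 74 without KO-miR-17 replicates 1 and 2, and 508 without a variance trend. The gap between replicate 1 and replicate 2 had a correlation of 0.43 to 0.63 between groups, taken across genes, and the labels do not state what the numbers mark. With a replicate block 2723, 38 and 2983 genes were called in the 3 comparisons, and no call of Maf, Prdm1 or Il10ra changed. In KO-mock minus WT-mock that block gave 15 lower regulators of Il10, 7 lower and 2 higher genes of its receptor and signalling list, 8 lower inducing receptors and ligands, 5 lower and 3 higher genes that Blimp-1 represses, 5 lower type 1 regulatory genes, 5 lower CD4 and 2 lower B cell markers and 2 higher regulatory T cell markers. With Il10 counted, it gave 6 lower c-Maf targets, and 4 lower and 1 higher relatives.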
